A study of Ovis aries with 2 samples.

Results

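The transcript entries described here are those that the deposited table of the sheep genome lists without a gene name. All entries whose name field reads Uncharacterized were taken, which gave 4419 of 22881 entries (19.3%). The other 18462 entries carry a gene name. No expression value entered the choice.

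RNA came from granulosa cells of Hu sheep, a breed kept for its large litters. The study used 16 multiparous ewes aged 3 to 4 years, penned singly, and set 8 on each feed level during the luteal phase of the cycle. The supplemented ewes received 1560 g of feed per day, 1.5 times the maintenance diet, and the restricted ewes received 520 g, 0.5 times maintenance. Cells were scraped from the wall of visible follicles above 2.5 mm in diameter. The labels do not say how many ewes of a group went into its RNA. Each feed level is represented by 1 library, so no spread between animals is known and no test of the diets is possible.

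Depth was 9426678 reads for the supplemented and 11299773 for the restricted library, summed over the entries of the deposited table. These totals were recovered from the deposited scaled values and leave out reads that fell on no entry. Shares of a library given below refer to them. Where a pair of values is given below, the supplemented library comes first. The 8 granulosa marker genes in the table were all measured, with summed levels of 9239 FPKM in supplemented and 22235 FPKM in restricted cells. All 8 were lower in the supplemented library, though 1 of them, FSHR, turned with reads taken as a share of the library. Of 11 leukocyte markers in the table, 10 were measured. Their levels, summed over the list, were 802 FPKM in supplemented and 163 FPKM in restricted cells, and 9 of the 10 lay beyond 2-fold in that direction. The summed level of the 8 stromal and smooth muscle markers was 1232 against 611 FPKM, and no leukocyte or stromal marker in the table was at 0 in both libraries. The part of these other cells in the differences given here was not tested. In bulk RNA, fewer cells of a type and less RNA per cell cannot be told apart.

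A genome annotation begins with models of where transcripts lie, and a model receives a name when its product resembles a gene that is already known. Models that stay unnamed are often short reading frames, fragments of longer genes, or members of families that have multiplied in tandem, such as the antigen-presenting molecules of the major histocompatibility complex (MHC), whose copies do not pair off cleanly between species. Granulosa cells surround the oocyte and make oestradiol under the control of follicle-stimulating hormone. Macrophages and other leukocytes lie in the follicle wall outside the granulosa layer.

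Unnamed entries were found on all 27 chromosomes of the table. They made up between 14.8% of the entries on chromosome 14 and 30.3% on chromosome 26. Most of them (4188) were the only entry at their locus, 194 shared a locus with a named entry and 37 shared one only with other unnamed entries. A locus in the table is the span of all entries that share it, so for shared loci the length belongs to the locus and not to the entry.

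The unnamed loci were short. Their median length was 591 bases, against 21599 bases for named entries, and they ranged from 150 to 930878 bases. A locus of 150 to 300 bases held 34.8% of the unnamed entries (1537) and 1.59% of the named ones. Of all 4215 loci of up to 1000 bases, 91.4% left the same remainder when the length was divided by 3. No source states whether starts count from 0 or from 1. They were read as counting from 0, the reading that makes this remainder 0, so that these lengths are multiples of 3 (99.5% of the unnamed loci of 150 to 300 bases) follows from that choice.

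Many unnamed entries were silent: 2200 (49.8%) had no read in either library, against 2212 named entries (11.98%). Another 1537 unnamed entries had reads in both libraries, 426 in the supplemented library alone and 256 in the restricted library alone. No unnamed entry seen in 1 library alone had more than 10 reads there. Entries without a read were common at every length, from 37.3% of unnamed loci over 1000 and up to 10000 bases to 63.6% of those over 100000 bases. Among named loci over 100000 bases the share was 7.84%. Absence of reads at this depth does not show absence of the transcript.

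**Figure D1:**
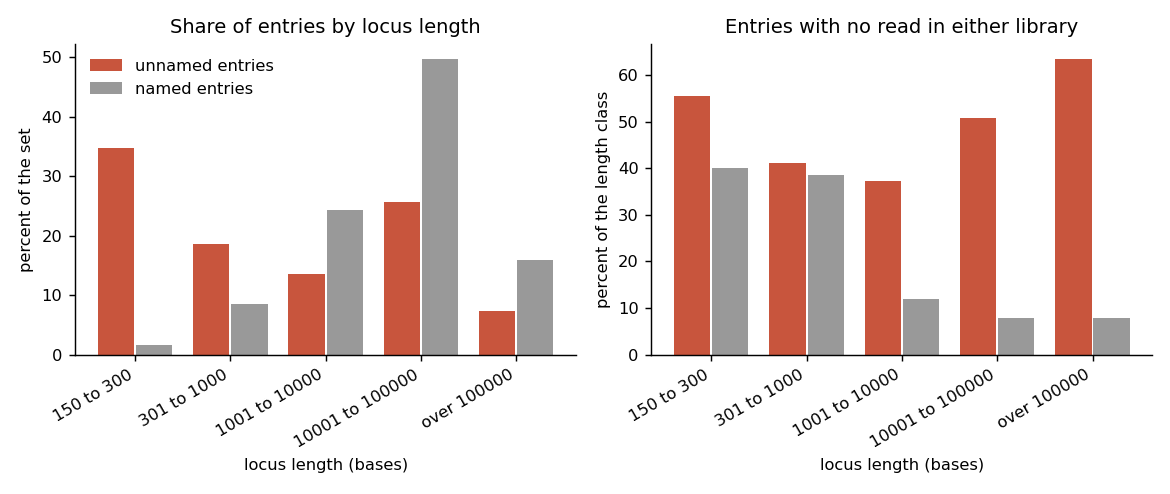
Left, the percent of unnamed entries (red) and of named entries (grey) in each class of locus length in bases. Right, the percent of each class with no read in either library; 34.8% of unnamed and 1.59% of named loci are 150 to 300 bases long.

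Reads on unnamed entries made up 1.39% of the supplemented library (exact 95% interval 1.38 to 1.40) and 1.26% of the restricted library (1.25 to 1.27). These intervals, like all others here, cover counting error only, and PCR copies are not independent molecules. The same entries held 4.61% and 4.18% of the summed FPKM (fragments per kilobase of transcript and per mapped library size). The 10 unnamed entries with most reads held 30.5% of the unnamed reads in supplemented and 30.9% in restricted cells.

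The share of FPKM was larger than the share of reads because FPKM gives 1 read more weight in a shorter transcript. In these files that weight climbed steeply at short loci. Among loci of up to 1500 bases whose length is a multiple of 3, a read in the supplemented library was worth a median of 2.39 FPKM at 150 to 200 bases. The median was 0.734 FPKM up to 300 bases, 0.243 up to 500, 0.0973 up to 1000 and 0.0496 up to 1500. At 150 bases 1 read alone gave 3.98 FPKM. A single read could thus lift a short entry over 1 FPKM, the level from which an entry is called measured here. At 300 bases 1 read gave 0.441 FPKM, a steeper fall than division by locus length alone would give. The FPKM of short loci, and ranks by it, are therefore raised beyond plain reads per kilobase.

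Most loci lay on 1 curve of FPKM per read against length, and the points above it have a transcript shorter than their span. Reading each entry's FPKM per read back against that curve gave the model length that the deposited FPKM implies. Of the 2219 unnamed entries with a read, the implied length was 300 bases or less for 841 (37.9%) and over 1500 bases for 112 (5.05%), with a median of 375 bases. Of 16250 named entries with a read, 2.74% fell at 300 bases or less and 46.2% over 1500, with a median of 1389 bases.

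**Figure D2:**
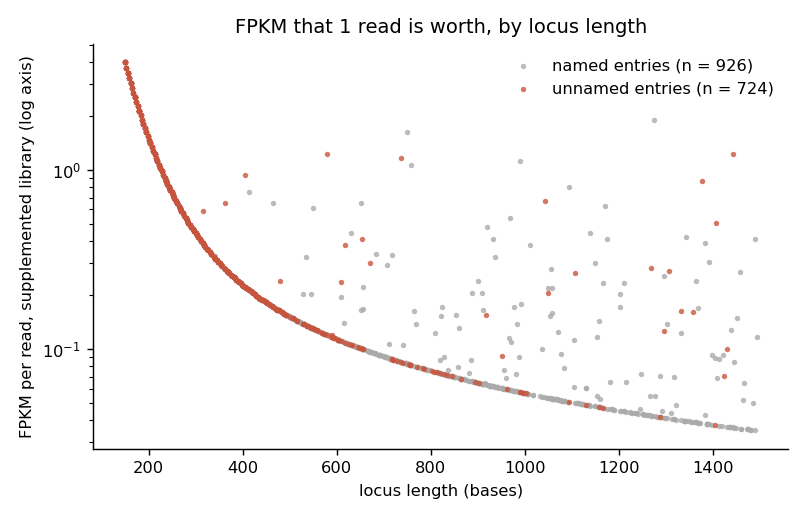
FPKM that 1 read is worth in the supplemented library (log axis) against locus length in bases, for unnamed (red, n = 724) and named (grey, n = 926) entries alone at loci of up to 1500 bases with a length that is a multiple of 3. Points on the curve fall from 3.98 FPKM per read at 150 bases to 0.0350 near 1491 bases; points above it have an implied length below their span.

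With a mean of at least 1 FPKM over both libraries, 1211 unnamed entries (27.4%) and 11588 named entries (62.8%) were measured. The median measured unnamed entry had 21 reads over both libraries, and the median named one 634. Under 20 reads stood behind 591 of the measured unnamed entries (48.8%) and behind 2.13% of the measured named ones. The 620 unnamed entries with 20 reads or more are therefore the basis of what follows.

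Among these 620 entries, 26 (4.19%) were higher in the supplemented library by 2-fold or more and 20 (3.23%) were lower by as much, on the scale log2((FPKM + 1) of supplemented over restricted). Over all 11961 entries with as many reads, named and unnamed, 4.36% were higher and 2.22% lower, so the unnamed shares lie near this background. Higher entries were 56.5% of those beyond 2-fold as the authors scaled the values, and 75.9% (41 higher, 13 lower) with reads taken as a share of the library. The same scaling took them from 66.2% to 74.5% without a minimum of reads. It raises the read ratios of all entries, and the share over all entries was not computed under it. As the authors scaled the values, 521 of the 11961 entries were higher and 266 lower. The 620 unnamed entries had a median log2 ratio of -0.04, against -0.09 for all entries with as many reads, and 287 lay above 0 and 333 below. This scale understates the differences of low entries, since 1 FPKM is added to both levels.

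Without the minimum of 20 reads, 208 of the 1211 measured unnamed entries (17.2%) were at least 2-fold higher and 106 (8.75%) lower, against 5.84% and 2.9% of all 12799 measured entries. The excess over the background lay in entries of few reads. Of 253 unnamed entries with 1 to 4 reads, 66.0% were beyond 2-fold in 1 direction or the other. The share fell to 29.9% at 5 to 19 reads, 9.09% at 20 to 99, 6.29% from 100 to under 1000 and 4.17% of the 48 entries with 1000 reads or more. Named entries went the same way, from 42.5% of 40 entries with 1 to 4 reads to 4.28% at 1000 or more.

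By the exact counting interval of the read ratio, 10 of the 620 entries (1.61%) lay wholly above 2-fold and 5 (0.806%) wholly below, against 3.45% and 1.34% of all entries with 20 reads. Intervals that lay wholly above 1 were found for 78 unnamed entries (12.6%, all entries 20.9%) and wholly below 1 for 126 (20.3%, all entries 36.9%). Intervals are wider where reads are fewer, and the unnamed entries had fewer. In the authors' deposited table, q was below 0.05 for 2 unnamed entries (0.0453%), both up, and for none down, against 0.612% up and 0.131% down of all 22881 entries. At p below 0.05, the authors' deposited table has 49 unnamed entries up (1.11%) and 10 down (0.226%), where 3.14% and 1.4% of all entries pass. These shares include entries without a read, which were 49.8% of the unnamed and 11.98% of the named entries. Those p and q values compare 2 libraries, not the diets.

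**Figure D3:**
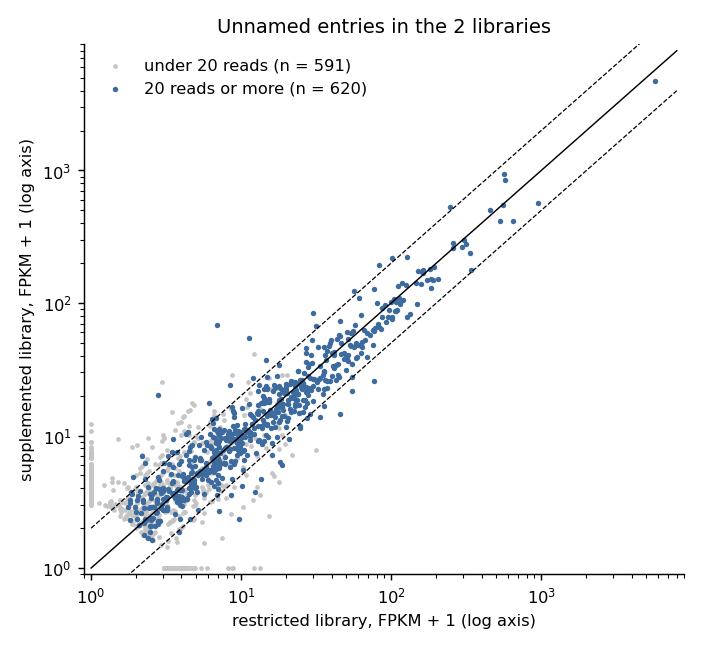
FPKM + 1 of the 1211 measured unnamed entries in the supplemented library against the restricted library, both on log axes, with 620 entries of 20 reads or more in blue and 591 with fewer in grey. The solid line marks equal levels and the dashed lines 2-fold; most points beyond 2-fold are grey, among them all those at 0 FPKM in 1 library.

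The largest ratio belonged to CCG006867.0 on chromosome 24, from 2688464 to 2688625, a locus of 162 bases. It had 22 reads in supplemented and 2 in restricted cells, which is 67.2 and 5.92 FPKM, a ratio of 11.4 (95% interval 2.80 to 99.9). Its neighbour 0.614 kb away is MEFV, which encodes pyrin, a sensor protein of neutrophils and monocytes. MEFV had 350 and 23 reads, 8.75 and 0.555 FPKM, and q = 6.98e-05 in the authors' deposited table. Both were higher in supplemented cells, and the short entry stands on far fewer reads. A further unnamed entry of 228 bases in that stretch, CCG006868.0, had 3 reads and 1.

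CCG021563.0 spans 43885 bases of chromosome 18, from 28354989 to 28398873, with an implied model length of 423 bases. It had 94 reads in supplemented and 9 in restricted cells, 19.2 and 1.77 FPKM, a ratio of 10.8 (5.46 to 24.4). It is 1 of the 2 entries called in the authors' deposited table, with q = 0.0210. No named entry lies within 100 kb of it.

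The other called entry, CCG004980.0, lies in the MHC class II region of chromosome 20, from 25381845 to 25430683. It had 608 reads in supplemented and 122 in restricted cells, 53.3 and 10.3 FPKM, a ratio of 5.16 (4.24 to 6.32), and q = 0.0131 in the authors' deposited table. Class II molecules present peptides to helper T cells and are made by macrophages, dendritic cells and B cells. Its nearest named entry, HLA-DRB1 at 19.3 kb, is listed at 0 in both libraries.

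The class II region as tabled, from ELOVL5 to BTNL2 on chromosome 20 (25193098 to 25836929), holds 6 unnamed and 6 named entries. All 6 unnamed entries were higher in the supplemented library, with 1260 reads in supplemented and 368 in restricted cells in all. Besides CCG004980.0, CCG004930.0 had 208 and 66 reads (ratio 3.26, 2.46 to 4.37) and CCG005438.0 had 126 and 46 (ratio 2.84, 2.01 to 4.07). CCG005262.0 had 216 reads and 86 (ratio 2.60, 2.02 to 3.38), but at 2.10 and 0.808 FPKM its log2 ratio with 1 FPKM added was 0.78. CCG005370.0 had 95 and 48 reads, and CCG005145.0 had 7 and none.

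Of the named class II entries in the region, 2 were higher by the size rule and 2 were listed at 0 in both libraries. MAMU-DRA, the class II alpha chain named after its macaque counterpart, had 1941 and 512 reads, 156 and 39.9 FPKM, with q = 0.00448 in the authors' deposited table. A BOLA-DQB entry, a class II beta chain named after its cattle counterpart, had 607 and 179 reads, 50.3 and 14.3 FPKM, while the second entry of that name, like HLA-DRB1, was listed at 0. Class II genes are near-identical in parts, so reads could have been split between copies and the level of any single entry here is uncertain. Leukocyte markers, which moved the same way, are given above.

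**Figure D4:**
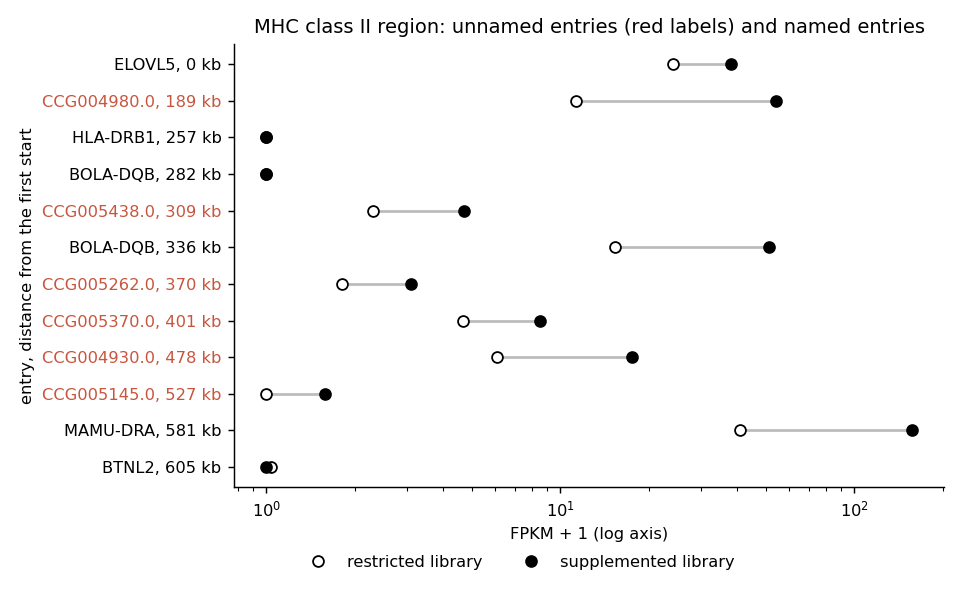
FPKM + 1 (log axis) in the restricted (open) and supplemented (filled) library for the 12 entries of the MHC class II region, in order of position, with the distance in kb from the start of ELOVL5; unnamed entries have red labels. Each of the 6 unnamed entries has its filled point to the right, as do ELOVL5, MAMU-DRA and 1 BOLA-DQB entry.

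CCG015623.0 on chromosome 13 (42736814 to 42750908) had 136 reads in supplemented and 28 in restricted cells, 6.03 and 1.20 FPKM, a ratio of 5.03 (3.33 to 7.85). It sits in a run of 11 unnamed entries between UCN3, which encodes urocortin 3, and the aldo-keto reductase gene AKR1E2. Of those 11 entries, 6 had no read in either library and 1, CCG015623.0, was measured. CCG015850.0 in the same run had 18 and 4 reads (ratio 4.66, 1.53 to 18.9), at 1.06 and 0.227 FPKM. AKR1E2 lies 280 kb from CCG015623.0 and had 275 and 178 reads (ratio 1.60).

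CCG013610.0 on chromosome 23 (37476114 to 37476359), 246 bases long, had 107 reads in supplemented and 39 in restricted cells, 82.9 and 29.2 FPKM. Its ratio was 2.84 (1.95 to 4.21). EMILIN2, an elastic-fibre glycoprotein gene 0.274 kb away, had 771 and 241 reads, a ratio of 3.31. The short entry and its neighbour differed alike, as at MEFV. By contrast CCG005543.0 on chromosome 20, 372 bases long, had 88 and 29 reads (ratio 3.14, 2.04 to 4.96), while LRRC16A at 1.14 kb, which encodes an actin-capping regulator, had 3748 and 3147 (ratio 1.23).

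CCG008739.0 on chromosome 3 (204423183 to 204430768) had 65 reads in supplemented and 20 in restricted cells, a ratio of 3.36 (2.01 to 5.86). Its region holds receptors of the C-type lectin family, many of them on myeloid and natural killer cells. CLEC7A, the receptor for fungal glucans, had 59 and 13 reads, and CLEC1A had 68 and 20. OLR1, the receptor for oxidised low-density lipoprotein, had 266 and 289 reads. The nearest named entry, GABARAPL1, which takes part in autophagosome formation, had 801 and 466 FPKM.

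The remaining entries among the 10 largest ratios had few reads. CCG018203.0 on chromosome 26, beside the tryptophan-degrading enzyme gene IDO2, had 31 and 8 reads (ratio 4.01, 1.80 to 10.1). IDO2 itself had 1 read, in the supplemented library. CCG009576.0 on chromosome 3, at one end of a lysozyme cluster, had 21 and 5 (ratio 4.35, 1.60 to 14.8). Lysozymes cleave bacterial cell walls and, in ruminants, have multiplied in tandem, and members may share reads.

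That cluster on chromosome 3 (150130424 to 150439510, with YEATS4 at its start) was not uniform. CCG009690.0, with 418 FPKM in supplemented and 645 in restricted cells (2244 and 3586 reads), is among the most abundant unnamed entries and was 1.54-fold lower (1.46 to 1.63). CCG009400.0 had 70 and 99 reads, CCG008140.0 39 and 27, and CCG008313.0 14 and 3. The named lysozyme entry LYS went the other way from CCG009690.0, with 378 reads in supplemented and 61 in restricted cells and q = 0.0115 in the authors' deposited table. LYZ3, the named entry nearest to CCG009690.0, had only 3 and 6 reads. The implied model length was 444 bases for both CCG009690.0 and CCG009400.0.

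Another 2 entries at least 2-fold higher, outside the 10 largest ratios, were picked after their values were seen. CCG000268.0 on chromosome 11 (14021394 to 14027261) lies among CC chemokines, which attract leukocytes. It had 2183 reads in supplemented and 1026 in restricted cells, 122 and 55.6 FPKM, a ratio of 2.20 (2.04 to 2.37). CCL3, a chemokine of macrophages, had 1340 and 194 reads there (q = 0.000122 in the authors' deposited table), and CCL14 had 86 and 37. CCL16 had 28 and 17 reads, with an interval that included 1 (ratio 1.71, 0.901 to 3.32). A second CCL3 entry had 1 read, in the restricted library, and CCL3L1 and QTSA-16377 had none. CCG011419.0 on chromosome 1 had 405 and 176 reads (ratio 2.38, 1.99 to 2.86) near CSTB, which encodes the cathepsin inhibitor cystatin B and had 712 and 373.

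Of the 20 lower entries, CCG021667.0 lies on chromosome 18 (57912181 to 57961824). It had 168 reads in supplemented and 624 in restricted cells, 4.96 and 17.8 FPKM, and was 3.59-fold lower (3.02 to 4.28), with q = 0.0817 in the authors' deposited table. It lies between SERPINA6, which encodes the cortisol carrier of plasma, and SERPINA11, in the cluster of clade A serpins. A second unnamed entry there, CCG021938.0, had 94 and 157 reads (1.61-fold lower, 1.24 to 2.11). SERPINA6 had 133 and 113 reads and SERPINA11 11 and 20. PPP4R4, at the edge of the cluster, had 131 and 132 reads.

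A pair of adjoining unnamed entries on chromosome 12 was lower together. CCG018506.0 (49171100 to 49179081) had 92 reads in supplemented and 293 in restricted cells, 24.7 and 76.2 FPKM, 3.08-fold lower (2.43 to 3.93). CCG018772.0 (49179248 to 49190999) had 330 and 865 reads, 12.8 and 32.5 FPKM, 2.53-fold lower (2.23 to 2.88). Named neighbours were lower by less: ATAD3, a mitochondrial membrane protein gene 0.642 kb from the first, had 649 and 982 reads, and MRPL20, of the mitochondrial ribosome, had 453 and 775. The counting intervals of the pair did not overlap those of these 2 neighbours.

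Of the other lower entries, CCG012818.0 on chromosome 14 had 15 and 56 reads and was 3.61-fold lower (2.01 to 6.87), 1.21 kb from the DNA repair gene XRCC1 with 998 and 1178 reads. CCG012218.1 on chromosome 1, at a locus shared with 1 other unnamed entry, had 3.1 and 21 reads and was 6.54-fold lower (2.02 to 35.4). Its fraction of a read comes from the authors' division of reads between entries of a locus. The interval of CCG012218.1, among those counted above as wholly beyond 2-fold, leaves out the error of that division. In the authors' deposited table CCG012218.1 has p = 0.380. CCG018141.0 on chromosome 26 shares its locus with PLAT, which encodes tissue plasminogen activator. It had 8.2 and 28.5 reads while PLAT had 702 and 333 (ratio 2.18), so as the authors divided the reads, the entries of 1 locus lay on opposite sides. The error of that division is not known, and CCG018141.0 has p = 0.598 in the authors' deposited table.

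The last 5 of the 10 smallest ratios, CCG023353.0, CCG014094.0, CCG007909.0, CCG019135.0 and CCG012429.0, sit at loci of 156 to 345 bases with 5 to 10 supplemented and 16 to 30 restricted reads. For CCG019135.0 (6 and 16 reads) the interval runs from 0.957 to 8.04-fold lower and so includes no difference. The threshold itself separates near neighbours. CCG004903.0 and CCG005438.0 lie just inside it at log2 ratios of 1.01 and 1.03, and CCG016865.0 and CCG009650.0 just outside at 0.99 and 0.95. On the lower side CCG020489.0 (-1.003) and CCG023244.0 (-1.02) lie inside, and CCG007163.0 and CCG010432.0 (both -0.97) outside.

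**Figure D5:**
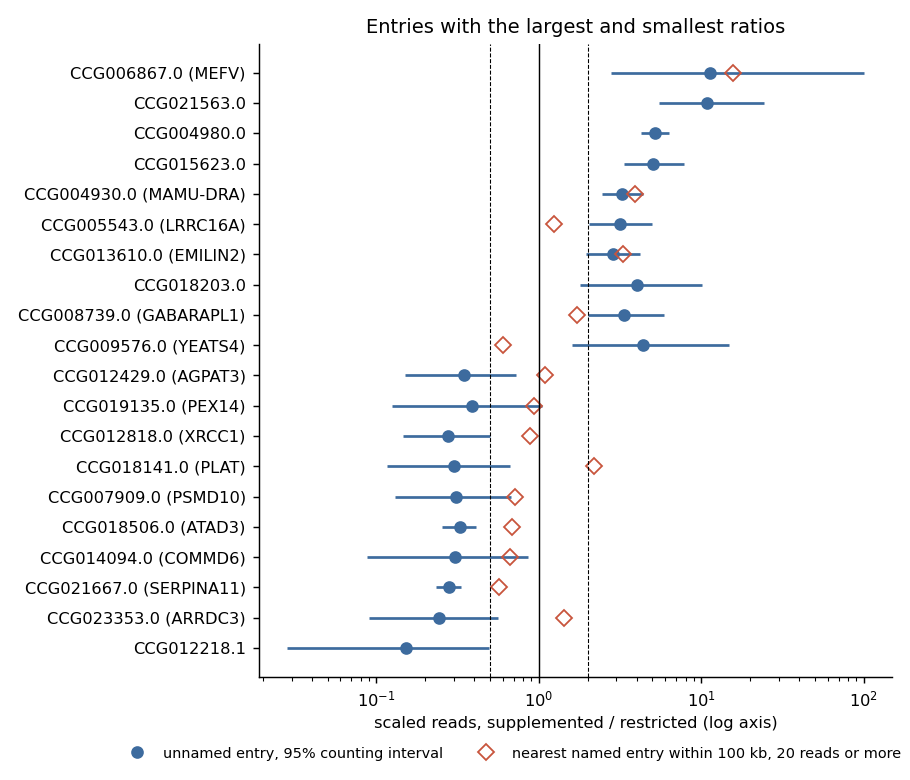
Ratio of scaled reads, supplemented over restricted (log axis), of the 10 unnamed entries with the largest and the 10 with the smallest log2 ratios among those with 20 reads or more. Blue points carry exact 95% counting intervals and red diamonds mark the nearest named entry where it lies within 100 kb and has 20 reads or more; solid and dashed lines mark ratios of 1 and 2-fold. Diamonds of MEFV, MAMU-DRA, EMILIN2, COMMD6 and PEX14 lie inside the interval of their unnamed neighbour, and those of YEATS4, ARRDC3, AGPAT3 and PLAT on the opposite side of 1.

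The unnamed entries foremost by FPKM and by reads were both slightly lower in the supplemented library. CCG009980.0, a locus of 222 bases on chromosome 3 (62821810 to 62822031), had 4403 reads in supplemented and 5580 in restricted cells, which is 4695 and 5757 FPKM, rank 8 by mean FPKM among all entries. It was 1.22-fold lower (1.18 to 1.27). KIAA1841, its nearest named entry at 11.8 kb, had 17.0 and 17.4 FPKM. By reads, the foremost unnamed entry was CCG005469.0 on chromosome 20 (27364429 to 27367690), 1.39 kb from FLOT1, which encodes a protein of membrane rafts. It had 10456 and 13853 reads, 417 and 534 FPKM, rank 85 by reads among all entries, and was 1.28-fold lower (1.25 to 1.31).

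Among the 10 with the highest mean FPKM, 5 had loci of 300 bases or less and 1 was beyond 2-fold. That entry, CCG007883.0 on chromosome X (71243241 to 71243474), had 589 and 281 reads, 532 and 246 FPKM, a ratio of 2.17 (1.88 to 2.51). RPS6KA6, a kinase gene 4.90 kb away, had 178 and 117 reads, a ratio of 1.58. CCG023363.0 on chromosome 5, 180 bases long, had 946 and 564 FPKM (ratio 1.68, 1.44 to 1.96) and lies 0.780 kb from SPARC, a matrix protein gene with 146 and 94.98 FPKM (ratio 1.54, 1.44 to 1.64). CCG002715.0 shares a locus on chromosome 21 with the entry named MRF. It had 569 FPKM in supplemented and 953 in restricted cells (1.67-fold lower, 1.50 to 1.86), and MRF had 2.29 and 4.19.

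The others of the 10 lay within 1.5-fold, CCG009690.0 excepted. CCG006820.0 on chromosome 24 had 849 and 573 FPKM from 4162 and 2907 reads (ratio 1.48, 1.41 to 1.55), beside AZGP1, a plasma glycoprotein gene with 7 and 8 reads. CCG009600.0 had 550 and 556 FPKM, CCG009925.1 503 and 453, and CCG000075.0 298 and 304. For these 3 entries the counting interval of the ratio included 1.

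Unnamed entries tended to lie on the same side as their nearest named entry. A named entry lay within 100 kb of 3603 unnamed entries (81.5%) and within 10 kb of 1852. Where both had 20 reads and 1 FPKM, which held for 471 pairs, Spearman's rho of the log2 ratios was 0.33 and Pearson's r was 0.37, and both had the same sign in 63.5%. At shared loci (33 pairs) rho was 0.29 and 78.8% shared the sign. At gaps above 0 and up to 1 kb (100 pairs) rho was 0.42 and 69.0% did. Over 1 and up to 10 kb rho was 0.28 and 60.6% did, and over 10 and up to 100 kb 0.30 and 59.8%. The share of equal signs thus fell with the gap, while rho did not fall steadily. Among 7665 pairs of a named entry and its nearest entry of another name, rho was 0.10 and 55.9% shared the sign. Pairs share both libraries and their scaling, so these figures are a description across loci.

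In the 19 pairs whose unnamed entry was at least 2-fold higher, the named neighbour was higher as well in 4 and lower in 1. In the 13 pairs with a lower unnamed entry, the neighbour was lower in 1 and higher in none. In the 439 other pairs the neighbour was higher in 13 and lower in 6. The median log2 ratio of the neighbours was 0.49 in the first case and -0.39 in the second, and -0.06 for the other pairs. Of 32 unnamed entries whose nearest named entry is called in the authors' deposited table, 8 were measured, of which 4 were higher and none lower by the size rule, where 17.2% of measured unnamed entries were higher. Both figures are without the minimum of 20 reads. Among the 32, entries with the same nearest named entry count separately, as CCG004930.0 and CCG005145.0 do beside MAMU-DRA.

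Unnamed entries also followed one another. There were 207 runs of at least 3 unnamed entries within 100 kb of each other with no named entry between, holding 765 entries, and 126 of the runs had exactly 3. In 41 runs no entry had a read, and in 39 every entry had one. The longest runs, of 11 entries, number 2. The first is the run on chromosome 13 described above. The second lies on chromosome 4 (105424680 to 105534226) between TRBV12-3 and V-TCR, names of T cell receptor variable segments. Its 11 entries together had 15 reads in supplemented and 20 in restricted cells, 4 had none, and none was measured.

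In 2 further runs, picked after their values were seen, the reads leaned towards the supplemented library. Between TRIM39 and POL on chromosome 20 (27566931 to 27602315), CCG005202.0 had 956 and 578 reads (ratio 1.71, 1.54 to 1.90) and CCG005345.0 had 972 and 554 (1.82, 1.63 to 2.02), while CCG005566.0 had 9 and 11. Between ARHGEF3 and PEX5 on chromosome 3, CCG008598.0 had 239 and 125 reads (1.98, 1.59 to 2.48). CCG008654.0 had 101 and 18 reads there (5.81, 3.50 to 10.2), but at 0.708 and 0.122 FPKM it fell under the 1 FPKM needed to be measured. PEX5, which brings enzymes into peroxisomes, had 657 and 681 reads.

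By chromosome, the 39 unnamed entries with 20 reads on chromosome 20 had a median log2 ratio of 0.28, with 6 higher and 1 lower, and 3 of the 6 are the class II entries. The 14 on chromosome 12 had a median of -0.60, with 3 lower and none higher, 2 of them the adjoining pair. The medians of the 25 other chromosomes lay between these. Length went with no such difference: the median log2 ratio was 0.04 at 150 to 300 bases (88 entries), 0.02 up to 1000, -0.11 up to 10000, -0.07 up to 100000 and 0.12 above that (27 entries).

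Of the 5 longest loci, CCG011264.0 (930878 bases, shared with DPYD), CCG004991.0 (shared with CDKAL1) and CCG019344.0 (shared with PXDN) had no read in either library. CCG002847.0 on chromosome 6 had 4 and 10 reads. CCG006941.0 on chromosome X, 597590 bases with an implied model length of 858, had 208 and 180 reads, 14.3 and 11.97 FPKM (ratio 1.20, 0.975 to 1.47). The shortest length, 150 bases, was shared by 58 unnamed loci, of which 22 had a read and 36 (62.1%) had none. CCG009926.0 on chromosome 3, 1 of the 22, had 38 and 53 reads. Of the first 5 of the 58 by identifier, CCG001784.0 on chromosome 9 had 1 read, in the restricted library, and CCG001125.0, CCG001153.0, CCG001760.0 and CCG001806.0 had none.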

How the data were processed

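Granulosa cell RNA of each feed group was sequenced as 1 library, from 5 µg of RNA with 15 PCR cycles, per the labels' protocols. Per the submitters' processing notes, TopHat, Cuffdiff and the build Oar_v3.1 were used, versions unnamed. No source used here gives the annotation. The authors deposited scaled read values, a signal with a step per read of 1.02 (supplemented) and 0.983 (restricted). After division, 98.5% and 98.3% of entries above 0 came within 0.02 of a whole number, as did 99.0% and 98.9% of unnamed ones. The FPKM values, p-values and q-values are the authors', per the file headers. Strand is not given, so reads from overlapping transcripts on opposite strands could not be told apart. Coordinates are those of the deposited table on Oar_v3.1, with starts read as counting from 0 and written from 1.

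With Python 3.11.15, numpy 2.4.6, pandas 2.3.3, scipy 1.17.1 and matplotlib 3.10.9, entries averaging 1 FPKM or more over both libraries counted as measured. Differences are log2((FPKM + 1) ratios), with a threshold of 2-fold, and read ratios as scaled by the authors, with exact Clopper-Pearson 95% intervals. The intervals were tried on simulated reads with counting error alone, the error they assume. That trial does not bear on any other variation. No count model could be fitted with 1 library per group. Implied model lengths come from the lowest FPKM per read at each length among loci of 150 to 1491 bases. Identifiers matched 0 RefSeq identifiers, so unnamed entries received no name. Named in the text are the 10 largest and 10 smallest ratios and the 10 highest means among entries with 20 reads, entries called by the authors, the 5 longest and 5 shortest loci, their nearest named entries and runs of 3 or more. Other regions were chosen after their values were seen. Members and lists were chosen with earlier results of these data known. Alternatives covered the pseudocount, filters, threshold, scaling, shared loci and neighbour distance.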

Additional observations from a re-analysis of the deposited data

How the results depend on the processing

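No paired analysis was possible because each group has 1 library, and leaving a replicate out was not possible either. The 208 higher, 106 lower and 314 entries beyond 2-fold in all became 45, 24 and 69 with a pseudocount of 5, 46, 34 and 80 where the mean had to reach 5 FPKM, and 80, 31 and 111 at a log2 threshold of 2. They became 26, 20 and 46 with 20 reads or more, and 13, 5 and 18 for counting intervals wholly beyond 2-fold. The 26 higher, 20 lower and 46 with 20 reads became 11, 8 and 19 with a pseudocount of 5. A pseudocount of 0.1 gave 40 higher, and a minimum of 5 FPKM gave 17 higher and 18 lower (48.6% higher). Expressing reads as a share of the library raised read ratios by 0.21 on the log2 scale (the median of all measured entries from -0.08 to 0.11 with 1 FPKM added) and gave 41 higher and 13 lower. Higher entries were then 75.9% of those beyond 2-fold in place of 56.5%, and the share over all entries under this scaling was not computed. The alternatives with 20 reads were chosen after seeing the data. The median log2 ratio of 0.0391 became 0.0259 with a pseudocount of 5, -0.0397 with a minimum of 5 FPKM, -0.0449 with 20 reads, 0.12 centred on all measured entries and 0.23 as a share of the library. By summed FPKM the unnamed entries held 4.61% and 4.18% in place of 1.39% and 1.26%. Within 10 kb, 1852 entries had a named neighbour in place of 3603. Of 120 values for 30 named entries, 16 moved by more than the half-width of the counting interval, and 4 changed sign, those of CCG009600.0 and CCG000075.0 under both rescalings; none of an entry beyond 2-fold did. With a pseudocount of 5, 7 of 21 fell inside 2-fold (CCG015623.0, CCG018203.0, CCG008739.0, CCG009576.0, CCG018141.0, CCG012818.0 and CCG012429.0). Depth limits the 591 measured entries under 20 reads.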

Other observations

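FPKM and reads ranked the unnamed entries differently. Of the 10 entries with most reads, 4 are among the 10 of highest FPKM. CCG004440.0 on chromosome 7 (67237750 to 67372285, a locus shared with TOMM20) had 5831 reads in supplemented and 3602 in restricted cells, 126 and 75.4 FPKM, a ratio of 1.68 (1.61 to 1.75). CCG020427.0 on chromosome 2 had 3421 and 4424 reads but 60.4 and 75.5 FPKM. CCG005148.0 on chromosome 20 had 2596 and 3283 reads and only 7.25 and 8.86 FPKM.

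With at least 100 reads but a mean under 1 FPKM, 5 unnamed entries fell outside the measured set. CCG019320.0 on chromosome 2 had 387 reads in supplemented and 289 in restricted cells, at 0.961 and 0.693 FPKM. CCG008654.0 was the only 1 of the 5 whose read ratio passed 2-fold.

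Among unnamed entries with reads in 1 library alone, CCG007952.0 on chromosome 3 had the most, 10 reads in the supplemented library. The exact interval of its ratio runs from 2.32 upward. CCG012467.0 and CCG013542.0, both on chromosome 14, had 8 reads each, with intervals from 1.77 upward. In the other direction CCG016984.0 on chromosome 4, a locus of 171 bases, had 5 reads in the restricted library alone, at 12.3 FPKM, and its interval included no difference.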
